A study of Homo sapiens with 12 samples.

Results

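The mitosis genes are 54 genes whose products enter, time or carry out cell division: the kinases, cyclins and phosphatases of mitotic entry, the spindle checkpoint, the centromere and kinetochore, the chromosomal passenger complex, the mitotic kinesins and other spindle proteins, cytokinesis, chromosome condensation and the onset of anaphase. They were taken from a list of gene symbols, each matched to the Ensembl identifier of a row in the count table, and all 54 were found among the 58288 genes of the table. The matching used no measured value, but the list was chosen with earlier results of these data known. The study asked how the transcriptome of HL-60/S4 cells, a line derived from a human myeloid leukemia, answers tumor necrosis factor alpha (TNF-α) before and after granulocytic differentiation. Total RNA depleted of ribosomal RNA was sequenced in 12 libraries of 4 groups, with 3 flasks each: promyelocytes (undifferentiated cells) with vehicle or with TNF-α, and granulocytes (cells given 1 µM all-trans retinoic acid, ATRA, for 4 days) with vehicle or with TNF-α. All cells were at passage 8 and were kept for 2 h in medium with added calcium, with 16 ng/ml of TNF-α or the same volume of water (vehicle). Promyelocytes and granulocytes belonged to separate experiments, and levels of the 2 cell types were therefore not tested against each other, since cell type and experiment cannot be told apart. All flasks came from 1 cell line, and the p-values measure the spread between flasks.

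Entry into mitosis is driven by CDK1 bound to cyclin A or cyclin B, which CDC25 phosphatases switch on and which Polo-like and Aurora kinases help to start. The spindle checkpoint holds the anaphase-promoting complex back until every kinetochore is attached, and CDC20 then lets the complex destroy securin and cyclin B so that separase can part the chromatids. In resting cells and in G1 the DREAM complex holds most of these genes back, and the MMB complex with FOXM1 and NF-Y switches them on in G2 and M phase. Their messages are therefore scarce in resting cells. For these reasons the messages are widely used as a readout of dividing cells in a culture. Retinoic acid is known to slow the division of HL-60 cells as they mature. RNA was measured here in bulk, so fewer cells in G2 and M phase and less of each message per cell cannot be told apart.

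The 12 libraries held 22829189 to 31895061 read pairs assigned to genes. Levels are given in CPM, the count of a gene relative to the size of its library, with sizes scaled by the trimmed mean of M values (TMM) within each cell type. The 6 TNF-α response markers (TNF, TNFAIP3, NFKBIA, ICAM1, VCAM1 and CXCL8) were called higher with TNF-α in both cell types. Of the defining markers, MPO stood at a mean of 6378 CPM in vehicle promyelocytes and 2029.6 CPM in vehicle granulocytes, and CD38 at 8.45 and 1170.1 CPM. The monocyte and macrophage markers CD14, CD68, MRC1 and MARCO did not exceed a mean of 0.308 CPM in any group, whereas CSF1R stood at 49.95 CPM in vehicle granulocytes and was called lower with TNF-α there.

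The summed granule and granulocytic markers moved with TNF-α in promyelocytes and overlapped between the groups in granulocytes. The 6 granule and progenitor markers summed to 7819 to 8429.7 CPM in vehicle promyelocytes and 6463 to 7352 CPM with TNF-α, where 4 were called lower and 0 higher. In granulocytes, they summed to 2247 to 2478 CPM with vehicle and 2176 to 2361 CPM with TNF-α, with 1 called lower. The 8 granulocytic markers summed to 153 to 161 CPM in vehicle promyelocytes and 246 to 265 CPM with TNF-α (1 higher, 1 lower), and to 3984 to 4178 and 4128 to 4202 CPM in granulocytes (3 higher, 3 lower). The 5 monocyte and macrophage markers summed to 49.6 to 51.4 CPM in vehicle granulocytes and 30.3 to 33.8 CPM with TNF-α, nearly all of it CSF1R. In promyelocytes, 6 of the 8 granulocytic markers were not called, and the median log2 fold change of the 8 was 0.05 (range -0.45 to 0.96). Over all genes, 8.15% were called higher and 6.65% lower in promyelocytes, and 24.4% and 24.8% in granulocytes. The part of the marker shifts in the responses below was not tested.

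The mitosis genes were well covered. All 54 passed the filter on low counts in both cell types, and counts of single members ranged from 72 (CDC25C) to 27035 read pairs in a library. Together they took 0.838 to 0.911% of the read pairs in promyelocytes, 0.585 to 0.603% in vehicle granulocytes and 0.462 to 0.484% in granulocytes with TNF-α. Per kilobase of exon, TOP2A was the most abundant member in vehicle promyelocytes, at a mean of 113 CPM per kilobase, followed by CDC20 at 92.7 and CCNA2 at 81.02. In vehicle granulocytes TOP2A led at 82.1 CPM per kilobase, followed by MKI67 at 61.3 and UBE2C at 43.8. CDC25C was the lowest in both, at 1.75 and 1.86 CPM per kilobase.

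In granulocytes, TNF-α lowered most of the mitosis genes by a modest amount. Of the 54 members, 39 were called lower, 3 were called higher (PTTG1, ESPL1 and CDCA8) and 12 were not called at an adjusted p under 0.05. The background was 24.8% of 16944 genes called lower and 24.4% called higher. The median log2 fold change of the members was -0.25, beside -0.0047 over all genes tested, and the members ranged from -0.66 for NEK2 to 0.26 for PTTG1. In 41 members all 3 libraries with TNF-α lay under all 3 with vehicle and in 4 they lay above, where the background was 27.9% and 27.3% of genes. Library by library, the median member stood -0.26, -0.28 and -0.22 on the log2 scale from the vehicle mean in the granulocyte libraries with TNF-α. Of the 54 members, 9, 6 and 10 lay above their vehicle mean in these libraries, against 24 to 35 in the vehicle libraries.

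In promyelocytes the same treatment moved few of them, and more up than down. There 10 members were called higher (CDK1, CENPE, KIF14, KIF20B, DEPDC1, SMC2, SMC4, NCAPG, PTTG1 and ESPL1), 3 were called lower (CDC25B, NCAPD2 and CDC20) and 41 were not called. The background was 8.15% of 16250 genes called higher and 6.65% called lower. Group values did not overlap in 17 members that were higher and in 6 that were lower with TNF-α, beside 16% and 15.1% of all genes. The median log2 fold change of the members was 0.05, beside -0.0094 over all genes tested. Most of these calls lay near the threshold. Of the 13, those of CENPE and KIF14 stood whichever library was left out. The other 11 were lost in at least 1 such fit, and that of SMC4 in each. Without vehicle replicate 1, 9 of them were lost and the calls numbered 4 higher and 0 lower. Without vehicle replicate 2, all 11 were lost, and 2 members were called higher and 0 lower. Leaving out TNF-α replicate 1 lost 8 calls and gave 4 higher and 1 lower, and leaving out TNF-α replicate 2 lost 10 and gave 3 higher and 0 lower. Without vehicle replicate 3 the calls of DEPDC1 and SMC4 were lost (adjusted p = 0.1 and 0.0804), and without TNF-α replicate 3 those of SMC4 and ESPL1 (adjusted p = 0.0657 and 0.0521), with 10 members called higher and 5 lower in the latter fit. The highest adjusted p that any of the lost calls reached was 0.245, for CDC25B without TNF-α replicate 2. In each of the fits that lost a call the log2 fold change kept its direction, at 67.6% (CDC20) to 110.5% (DEPDC1) of its value with none left out.

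The difference between the 2 responses was tested in a fit of all 12 libraries. In 27 members the granulocyte response lay below the promyelocyte response, in 1 it lay above (CDCA8) and in 26 the test did not call a difference. The background was 9.88% of 18124 genes called lower and 14.1% called higher. The median of the members was -0.26 and that of all genes tested was 0.033. With DESeq2 in place of edgeR, the split over 15574 genes was 14.8% lower and 12.5% higher, and 34 members were called lower and 0 higher. By the calls in each cell type, 29 members fell in granulocytes and were not called in promyelocytes, 7 rose in promyelocytes and fell in granulocytes (CDK1, CENPE, KIF20B, DEPDC1, SMC2, SMC4 and NCAPG), 3 fell in both (CDC25B, NCAPD2 and CDC20), 2 rose in both (PTTG1 and ESPL1), CDCA8 rose in granulocytes and KIF14 in promyelocytes with no call in the other, and 11 were called in neither.

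**Figure D1:**
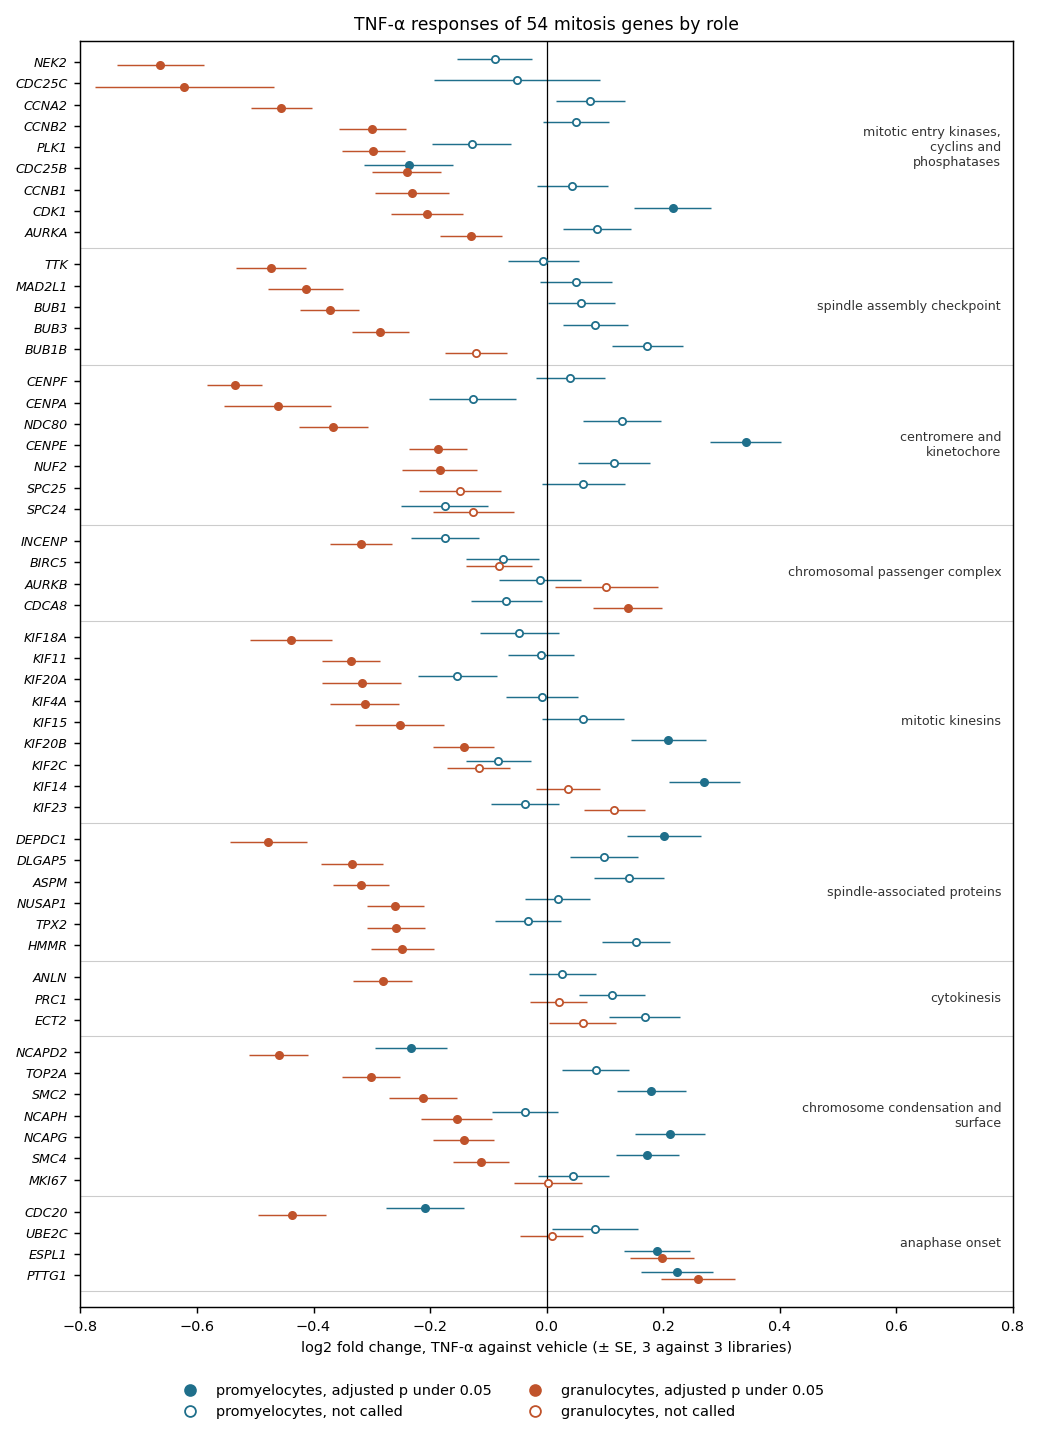
Log2 fold change of TNF-α against vehicle for each of the 54 mitosis genes, grouped by role and ordered by the granulocyte response, in promyelocytes (blue) and granulocytes (red). Bars are standard errors from 3 against 3 libraries and filled points are adjusted p under 0.05. Most granulocyte points lie left of 0, down to -0.66 for NEK2, while the promyelocyte points lie between -0.24 and 0.34.

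Genes of mitosis are known to share promoter elements: the cell cycle genes homology region (CHR), bound by the DREAM and MMB complexes, and the CCAAT box, bound by NF-Y. Promoters of 250 bases before to 50 after the start were matched by symbol in RefSeq (GRCh38.p14) for 48 of the 54 members and searched on both strands. The CHR motif (TTTGAA or TTCGAA) was present in 36 of 48 (75.0%), beside 16.6% of 27305 promoters of the table and 11.8% of 10666 promoters of genes tested, and it lay within the 50 bases before the start in 20 (41.7%), beside 2.74%. The CCAAT box (CCAAT) was also present in 36 of 48 (75.0%), beside 35.7%, and both motifs together in 28 (58.3%), beside 6.58%. The E2F motif (TTTCGCG or else TTCCCGC or else TTGGCGC) was present in 10 (20.8%), beside 10.4%. A CCAAT box on the reverse strand can share letters with TTGGCGC. In 29 promoters of DNA replication genes the E2F motif was present in 22 (75.9%) and the CHR motif in 2 (6.90%). By response, the CHR motif was in 27 of 35 members called lower in granulocytes (77.1%) and 9 of the other 13 (69.2%), and the CCAAT box in 25 (71.4%) and 11 (84.6%). A motif is a match of letters and not a bound site, and a window without a match says nothing of the factor.

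The 170 bases before the start are shown for 5 members with unlike responses. Capitals mark CHR motifs and CCAAT boxes on either strand, where ATTGG is a CCAAT box and TTCAAA a CHR motif read on the other strand. CDK1 (opposite calls in the 2 cell types) is at chr10:60778161-60778330 on the plus strand, CENPF and KIF11 (lower in granulocytes) are at chr1:214603025-214603194 and chr10:92592960-92593129 on the plus strand, ESPL1 (higher in both) is at chr12:53268129-53268298 on the plus strand, and MKI67 (called in neither) is at chr10:128126424-128126593 on the minus strand.
CDK1: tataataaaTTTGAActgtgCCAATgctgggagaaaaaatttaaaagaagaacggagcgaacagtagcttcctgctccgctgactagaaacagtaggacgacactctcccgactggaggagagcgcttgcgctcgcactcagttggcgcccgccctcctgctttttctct
CENPF: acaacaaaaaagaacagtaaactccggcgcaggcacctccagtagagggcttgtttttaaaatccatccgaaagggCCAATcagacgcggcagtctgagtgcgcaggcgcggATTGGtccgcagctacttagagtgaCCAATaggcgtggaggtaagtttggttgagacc
KIF11: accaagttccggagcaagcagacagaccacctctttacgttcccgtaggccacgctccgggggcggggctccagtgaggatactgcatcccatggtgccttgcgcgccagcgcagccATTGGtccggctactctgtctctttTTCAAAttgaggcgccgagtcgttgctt
ESPL1: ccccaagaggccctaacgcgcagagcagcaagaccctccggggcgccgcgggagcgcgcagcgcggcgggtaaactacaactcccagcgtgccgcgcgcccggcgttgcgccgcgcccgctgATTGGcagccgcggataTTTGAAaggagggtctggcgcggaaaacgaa
MKI67: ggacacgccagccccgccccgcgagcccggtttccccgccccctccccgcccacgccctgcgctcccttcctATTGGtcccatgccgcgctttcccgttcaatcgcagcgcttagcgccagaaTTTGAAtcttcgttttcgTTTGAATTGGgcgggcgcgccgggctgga
Positions count back from the start, at the first base of a motif. KIF11 had a CCAAT box at -53 and a CHR motif at -28, ESPL1 a CCAAT box at -48 and a CHR motif at -31, and their granulocyte log2 fold changes were -0.34 and 0.20. MKI67 had CHR motifs at -47 and -29 and CCAAT boxes at -98 and -24, those at -29 and -24 sharing a letter, and a granulocyte value of 0.0024. CDK1, for which the first of 2 RefSeq starts was used, had its CHR motif at -161 and its CCAAT box at -150. CENPF had 3 CCAAT boxes, at -94, -58 and -33, and no CHR motif in the stretch, and a granulocyte value of -0.54. Past the stretch shown, CENPF had a CCAAT box at base 13 and a CHR motif at base 41 after the start. It therefore counts among the members with a CHR motif.

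**Figure D2:**
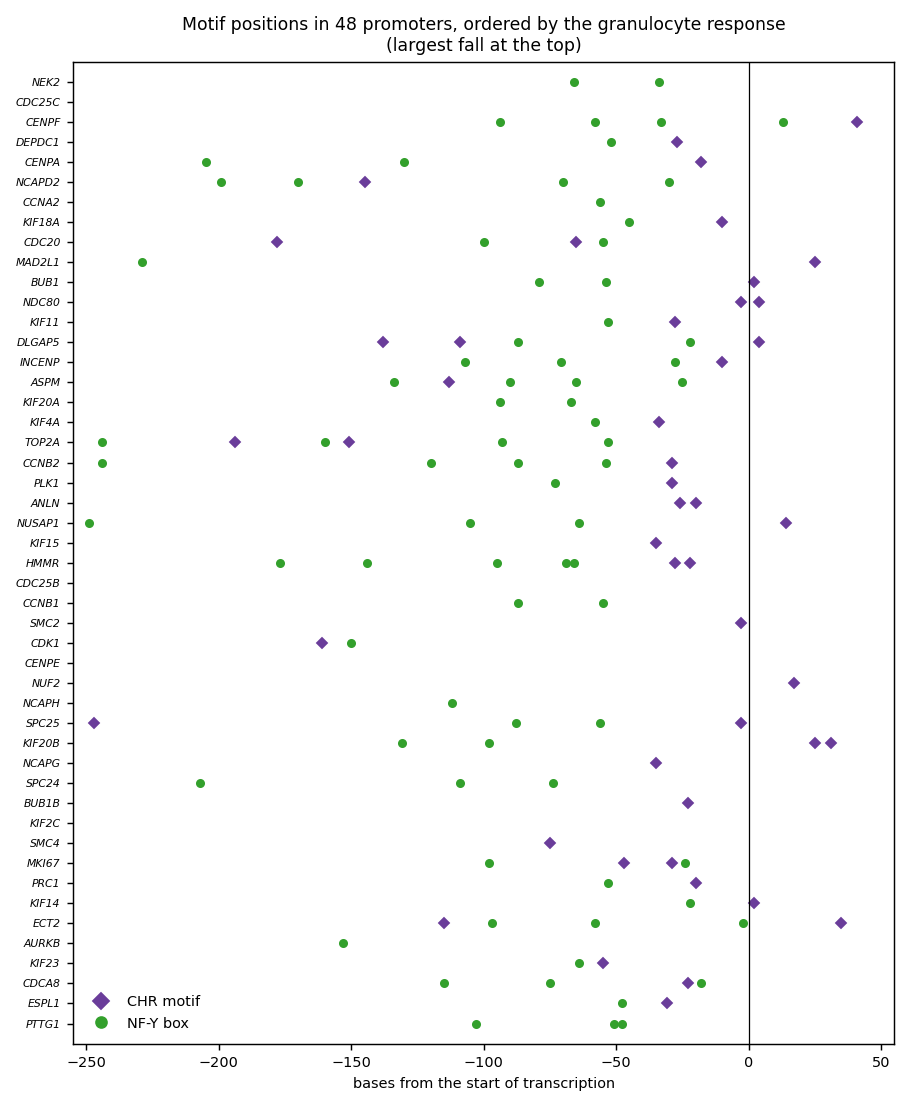
Position of CHR motifs (violet diamonds) and CCAAT boxes (green circles, labelled NF-Y box) in the promoters of 48 mitosis genes, in bases from the start of transcription. Both are matches of letters and not bound sites. Members are ordered by the granulocyte response from the largest fall (top) to the largest rise (bottom). CHR motifs lie in the 50 bases before the start in 14 of 35 members that fell in granulocytes and in 6 of the other 13.

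The 9 listed genes of mitotic entry fell together in granulocytes. All 9 (CDK1, CCNB1, CCNB2, CCNA2, CDC25B, CDC25C, PLK1, AURKA and NEK2) were called lower, with a median log2 fold change of -0.30. The share over all genes was 24.8%. Of 15 other mitotic entry regulators, 6 were called higher and 4 lower in granulocytes. With the trends with GC content and length removed, 7 of the 9 were called lower, without CDK1 and AURKA. The call of AURKA was also lost with DESeq2 (adjusted p = 0.0942) and with a replicate block in edgeR (adjusted p = 0.0878). NEK2, a centrosome kinase, was at 26.3, 26.7 and 26.7 CPM with vehicle and 16.7, 15.8 and 18.01 CPM with TNF-α in granulocytes (log2 fold change -0.66 ± 0.07 SE, adjusted p = 1.36e-09), the largest fall of the 54. In promyelocytes it was at 38.7, 39.5 and 40.6 CPM with vehicle and 38.4, 37.3 and 35.99 CPM with TNF-α (log2 fold change -0.09 ± 0.06 SE, adjusted p = 0.413). The NEK2 groups were far apart in granulocytes, and the difference of its responses was -0.54 (adjusted p = 8.94e-05). CCNA2 encodes cyclin A2, a partner of CDK2 and CDK1, and stood at 103, 107 and 96.7 CPM with vehicle and 73.3, 76.4 and 73.8 CPM with TNF-α in granulocytes (log2 fold change -0.46 ± 0.05 SE, adjusted p = 2.50e-09). Its promyelocyte levels of 233, 221 and 226 CPM with vehicle and 251, 241 and 224 CPM with TNF-α overlapped (log2 fold change 0.08, adjusted p = 0.454). CCNB2, a B-type cyclin, was at 57.2, 53.8 and 54.9 CPM with vehicle and 45.2, 42.8 and 46.98 CPM with TNF-α in granulocytes (log2 fold change -0.30 ± 0.06 SE, adjusted p = 3.61e-05), without overlap. In promyelocytes it was at 87.9, 83.97 and 86.7 CPM with vehicle and 89.9, 89.3 and 88.4 CPM with TNF-α (log2 fold change 0.05, adjusted p = 0.625), apart by a narrow margin and upward. CDC25B, a phosphatase that activates CDK1, was called lower in both cell types. Its granulocyte levels were 49.9, 54.1 and 57.5 CPM with vehicle and 46.4, 44.1 and 46.4 CPM with TNF-α (log2 fold change -0.24 ± 0.06 SE, adjusted p = 0.000893), with no overlap.

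The promyelocyte levels of CDC25B were 61.9, 59.02 and 52.5 CPM with vehicle and 48.2, 44.5 and 54.3 CPM with TNF-α (log2 fold change -0.24 ± 0.08 SE, adjusted p = 0.0435) and overlapped, since TNF-α replicate 3 lay above vehicle replicate 3. The difference of its responses, 0.04 ± 0.11 SE, was not called (adjusted p = 0.852). CDK1, the kinase that starts mitosis, was at 147, 129 and 143 CPM with vehicle and 172, 165 and 149.8 CPM with TNF-α in promyelocytes (log2 fold change 0.22 ± 0.07 SE, adjusted p = 0.0303). In granulocytes it was at 114, 113 and 103 CPM with vehicle and 83.7, 95.2 and 107 CPM with TNF-α (log2 fold change -0.20 ± 0.06 SE, adjusted p = 0.00566). The promyelocyte groups of CDK1 did not overlap, whereas in granulocytes TNF-α replicate 3 lay above vehicle replicate 3. The difference of the CDK1 responses was -0.38 ± 0.10 SE (adjusted p = 0.00652). In granulocytes the call of CDK1 was lost without TNF-α replicate 1 (adjusted p = 0.0764). In promyelocytes it was lost without vehicle replicate 2, TNF-α replicate 1 or TNF-α replicate 2 (adjusted p = 0.217, 0.112 and 0.0997). Of the others in this group, CDC25C had the next largest granulocyte response after NEK2 (log2 fold change -0.62 ± 0.15 SE, adjusted p = 0.000897), at the lowest level of all members. The smallest was that of AURKA at -0.13, whose call was lost without vehicle replicate 2 or 3 or TNF-α replicate 2 or 3 (adjusted p of 0.0734 to 0.199), and that of CCNB1 without TNF-α replicate 2 (adjusted p = 0.0669).

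**Figure D3:**
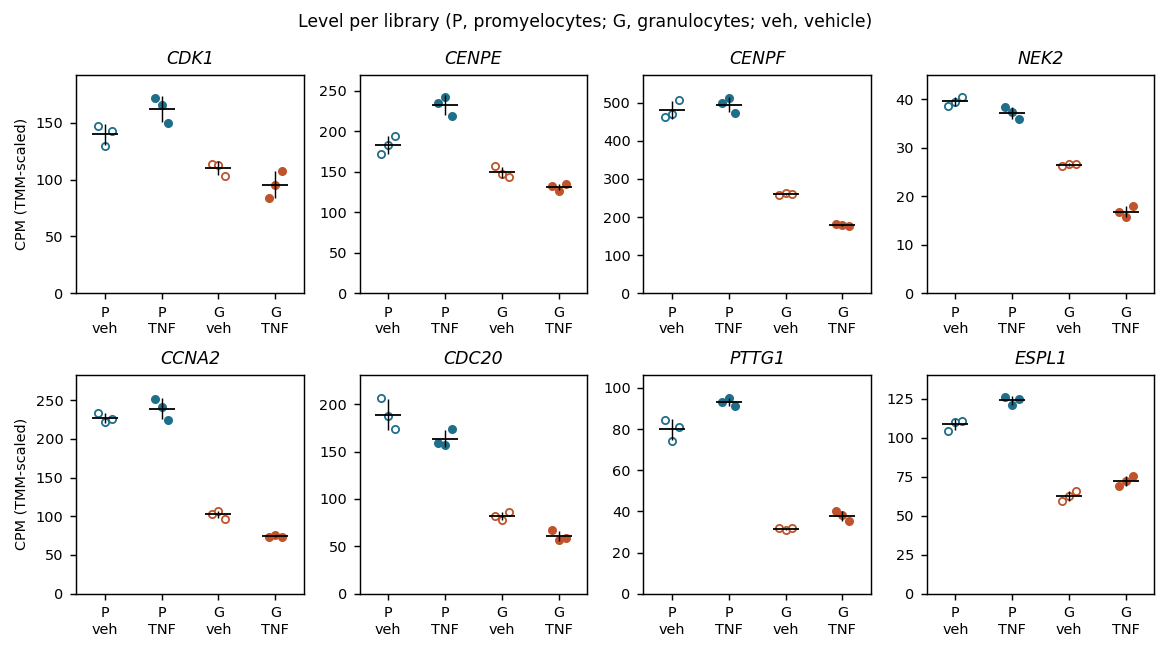
Levels in CPM of 8 mitosis genes in each library, for promyelocytes (P, blue) and granulocytes (G, red) with vehicle (veh, open) and with TNF-α (TNF, filled), with replicates 1 to 3 from left to right in each group and the mean ± SD of 3 libraries in black. CENPF, NEK2, CCNA2 and CDC20 lie lower with TNF-α in all 3 granulocyte libraries, PTTG1 and ESPL1 lie higher in both cell types, and CDK1 overlaps between the granulocyte groups.

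The spindle checkpoint genes fell in granulocytes without a call in promyelocytes. Of the 5 (BUB1, BUB1B, BUB3, MAD2L1 and TTK), 4 were called lower in granulocytes, 0 were called in promyelocytes, and in all 5 the difference of the responses was called lower. The shares of all genes called lower were 24.8% in granulocytes, 6.65% in promyelocytes and 9.88% for the difference. TTK, the kinase that recruits the checkpoint proteins, was at 65.8, 60.4 and 56.9 CPM with vehicle and 41.4, 45.2 and 45.2 CPM with TNF-α in granulocytes (log2 fold change -0.47 ± 0.06 SE, adjusted p = 2.46e-08). In promyelocytes TTK was at 100.4, 104 and 105 CPM with vehicle and 107, 105 and 95.5 CPM with TNF-α (log2 fold change -0.01, adjusted p = 0.968), with overlap. MAD2L1, which binds and restrains CDC20, was at 52.7, 48.4 and 43.4 CPM with vehicle and 36.2, 36.2 and 35.9 CPM with TNF-α in granulocytes (log2 fold change -0.41 ± 0.06 SE, adjusted p = 1.14e-06). In promyelocytes the values were 132, 123 and 136 CPM with vehicle and 142, 137 and 126 CPM with TNF-α (log2 fold change 0.05, adjusted p = 0.656). BUB1, a kinase of the outer kinetochore, was at 102, 105 and 103 CPM with vehicle and 77.9, 80.7 and 80.3 CPM with TNF-α in granulocytes (log2 fold change -0.37 ± 0.05 SE, adjusted p = 7.98e-08). In promyelocytes BUB1 was at 194, 194 and 196 CPM with vehicle and 199, 215 and 194 CPM with TNF-α (log2 fold change 0.06, adjusted p = 0.553). All 3 genes separated the granulocyte groups and overlapped in promyelocytes. BUB1B was the 1 member without a granulocyte call (log2 fold change -0.12, adjusted p = 0.0572), and its difference of responses lost its call without promyelocyte vehicle replicate 2, granulocyte vehicle replicate 2 or granulocyte TNF-α replicate 3 (adjusted p = 0.0627, 0.0621 and 0.0511).

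Of the 7 centromere and kinetochore genes, 5 were called lower in granulocytes and 1, CENPE, was called higher in promyelocytes. The shares over all genes were 24.8% and 8.15%. CENPF, a large protein of the outer kinetochore, was at 259, 264 and 260.3 CPM with vehicle and 182, 180.3 and 177 CPM with TNF-α in granulocytes (log2 fold change -0.54 ± 0.05 SE, adjusted p = 3.81e-12). Its replicates were tight and the groups lay well apart. In promyelocytes CENPF was at 463, 472 and 508 CPM with vehicle and 499, 512 and 473 CPM with TNF-α (log2 fold change 0.04, adjusted p = 0.708), with overlap. NDC80, which binds microtubules at the kinetochore, was at 50.2, 54.5 and 48.8 CPM with vehicle and 39.8, 38.9 and 40.4 CPM with TNF-α in granulocytes (log2 fold change -0.37 ± 0.06 SE, adjusted p = 2.35e-06) and at 70.6, 67.9 and 79.7 CPM with vehicle and 81.2, 81.9 and 75.7 CPM with TNF-α in promyelocytes (log2 fold change 0.13, adjusted p = 0.224). CENPE, a kinetochore motor that carries chromosomes to the spindle equator, rose in promyelocytes and fell in granulocytes. It was at 172, 184 and 195 CPM with vehicle and 235, 243 and 219.5 CPM with TNF-α in promyelocytes (log2 fold change 0.34 ± 0.06 SE, adjusted p = 0.000496), the largest rise of the 54 in that cell type. In granulocytes CENPE was at 157, 147 and 144 CPM with vehicle and 132, 127 and 135 CPM with TNF-α (log2 fold change -0.19 ± 0.05 SE, adjusted p = 0.00205). Neither pair of groups overlapped, and the CENPE calls in both cell types stood in each fit that left out 1 library. CENPA, the histone variant that marks centromeres, had a granulocyte log2 fold change of -0.46 (adjusted p = 5.99e-05) and NUF2 one of -0.18. The NUF2 call was lost without granulocyte vehicle replicate 1 or TNF-α replicate 1 or 3 (adjusted p = 0.0815, 0.0893 and 0.0648), and that of its difference of responses (-0.26, adjusted p = 0.0305) in 5 of 12 such fits, with a highest adjusted p of 0.088 without promyelocyte vehicle replicate 2. SPC24 and SPC25 were not called in either cell type, with granulocyte values of -0.13 and -0.15.

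Of the 4 genes of the chromosomal passenger complex, 1 was called lower, 1 was called higher and 2 were not called in granulocytes. These counts lie near the shares of all genes there, 24.8% lower and 24.4% higher. In promyelocytes 0 of the 4 were called, beside 6.65% of all genes lower and 8.15% higher. INCENP, the scaffold of the complex, was at 93.1, 94.1 and 101 CPM with vehicle and 79.7, 73.04 and 78.3 CPM with TNF-α in granulocytes (log2 fold change -0.32 ± 0.05 SE, adjusted p = 3.90e-06), without overlap. In promyelocytes it was at 147, 143 and 142 CPM with vehicle and 126, 121 and 136 CPM with TNF-α (log2 fold change -0.17, adjusted p = 0.0522), also without overlap. CDCA8, which encodes borealin, was at 43.2, 40.9 and 45.02 CPM with vehicle and 47.1, 45.8 and 49.5 CPM with TNF-α in granulocytes (log2 fold change 0.14 ± 0.06 SE, adjusted p = 0.0482) and at 92.8, 86.6 and 86.04 CPM with vehicle and 85.4, 80.4 and 87.3 CPM with TNF-α in promyelocytes (log2 fold change -0.07, adjusted p = 0.512). The granulocyte groups of CDCA8 were apart by a narrow margin, and its call was lost without vehicle replicate 1 or 2 or TNF-α replicate 1 or 3 (adjusted p = 0.087, 0.214, 0.0615 and 0.144). Its difference of responses, 0.25 (adjusted p = 0.034), kept its call in 6 of 12 such fits, with a highest adjusted p of 0.114 without granulocyte vehicle replicate 2. AURKB, the kinase of the complex, was at 14.2, 12.2 and 14.6 CPM with vehicle and 14.4, 14.5 and 15.03 CPM with TNF-α in granulocytes (log2 fold change 0.10, adjusted p = 0.353) and at 31.6, 29.4 and 30.5 CPM with vehicle and 29.5, 29.5 and 31.7 CPM with TNF-α in promyelocytes (log2 fold change -0.01, adjusted p = 0.942), with overlap in both. BIRC5 (survivin) had log2 fold changes of -0.08 and -0.08 in promyelocytes and granulocytes, without a call.

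Of the 9 mitotic kinesins, 6 were called lower in granulocytes and 2 (KIF14 and KIF20B) were called higher in promyelocytes. The shares over all genes were 24.8% and 8.15%. KIF18A, which sets the length of kinetochore microtubules, was at 35.8, 33.1 and 35.4 CPM with vehicle and 24.6, 23.7 and 28.7 CPM with TNF-α in granulocytes (log2 fold change -0.44 ± 0.07 SE, adjusted p = 2.08e-06). In promyelocytes KIF18A was at 42.3, 45.9 and 48.7 CPM with vehicle and 45.7, 44.4 and 42.5 CPM with TNF-α (log2 fold change -0.05, adjusted p = 0.706). KIF11, the Eg5 motor that separates the spindle poles, was at 129, 137 and 129 CPM with vehicle and 105, 105 and 103 CPM with TNF-α in granulocytes (log2 fold change -0.34 ± 0.05 SE, adjusted p = 4.25e-07) and at 190.5, 189 and 206 CPM with vehicle and 195, 196 and 191 CPM with TNF-α in promyelocytes (log2 fold change -0.01, adjusted p = 0.938). Both separated the granulocyte groups and overlapped in promyelocytes. KIF20B, a cytokinesis motor, was at 159.7, 176 and 187 CPM with vehicle and 204, 209.6 and 190.4 CPM with TNF-α in promyelocytes (log2 fold change 0.21 ± 0.06 SE, adjusted p = 0.0331). In granulocytes KIF20B was at 84.2, 86.5 and 81.2 CPM with vehicle and 71.9, 78.9 and 77.3 CPM with TNF-α (log2 fold change -0.14 ± 0.05 SE, adjusted p = 0.0244), so its groups were apart in opposite directions. The KIF20B call in granulocytes was lost without vehicle replicate 1 or 2 or TNF-α replicate 1 (adjusted p = 0.0525, 0.115 and 0.141), and that of KIF15 without vehicle replicate 1 (adjusted p = 0.0618). KIF14, a midbody motor, had log2 fold change 0.27 ± 0.06 SE, adjusted p = 0.0038 in promyelocytes and log2 fold change 0.04, adjusted p = 0.611 in granulocytes, where its groups overlapped. KIF23 and KIF2C were not called in either cell type. KIF4A fell in granulocytes (log2 fold change -0.31, adjusted p = 3.51e-05), and its difference of responses (-0.27, adjusted p = 0.0285) lost its call in 6 of 12 fits that left out 1 library, with a highest adjusted p of 0.103 without granulocyte vehicle replicate 2. Reads of KIF4A and PTTG1 could in part be placed on near-identical copies. Of these, KIF4B held at most 5 read pairs and PTTG2 at most 55 in any library, and other copies were not examined.

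All 6 spindle-associated genes (TPX2, NUSAP1, HMMR, DLGAP5, ASPM and DEPDC1) were called lower in granulocytes, with a median log2 fold change of -0.29, and none overlapped between the groups there. Of all genes, 24.8% were called lower there, and 27.9% had all 3 TNF-α libraries under all 3 with vehicle. DEPDC1 had the largest difference of responses of the 54, -0.64 ± 0.09 SE (adjusted p = 1.04e-05). It was at 40.5, 41.2 and 39.3 CPM with vehicle and 28.6, 26.7 and 31.9 CPM with TNF-α in granulocytes (log2 fold change -0.48 ± 0.07 SE, adjusted p = 1.35e-07) and at 60.8, 58.03 and 58.4 CPM with vehicle and 64.2, 73.2 and 66.3 CPM with TNF-α in promyelocytes (log2 fold change 0.20 ± 0.06 SE, adjusted p = 0.0381). Its groups were apart in both cell types, in opposite directions. ASPM, a protein of the spindle poles, was at 248, 260.2 and 248 CPM with vehicle and 198, 201 and 208 CPM with TNF-α in granulocytes (log2 fold change -0.32 ± 0.05 SE, adjusted p = 7.26e-07). In promyelocytes ASPM was at 316, 328 and 349 CPM with vehicle and 375, 376 and 344 CPM with TNF-α (log2 fold change 0.14, adjusted p = 0.129), with overlap. DLGAP5, which stabilizes spindle microtubules, was at 72.2, 73.2 and 69.98 CPM with vehicle and 55.4, 58.5 and 56.8 CPM with TNF-α in granulocytes (log2 fold change -0.33 ± 0.05 SE, adjusted p = 1.90e-06) and at 91.9, 94.01 and 101 CPM with vehicle and 103, 102 and 102 CPM with TNF-α in promyelocytes (log2 fold change 0.10, adjusted p = 0.3), where the groups were apart by a narrow margin. The granulocyte values of TPX2, NUSAP1 and HMMR lay between -0.26 and -0.25.

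Of the 3 cytokinesis genes 1 was called, lower in granulocytes, where 24.8% of all genes were called lower. ANLN (anillin), which scaffolds the contractile ring, was at 127, 136 and 131 CPM with vehicle and 104, 108 and 112 CPM with TNF-α in granulocytes (log2 fold change -0.28 ± 0.05 SE, adjusted p = 1.32e-05) and at 144, 149 and 152 CPM with vehicle and 152, 157 and 143 CPM with TNF-α in promyelocytes (log2 fold change 0.03, adjusted p = 0.806). ANLN was thus lower in all 3 granulocyte libraries with TNF-α and overlapped in promyelocytes. PRC1, which bundles the microtubules of the central spindle, was at 109, 113 and 116 CPM with vehicle and 117, 113 and 114 CPM with TNF-α in granulocytes (log2 fold change 0.02, adjusted p = 0.758) and at 132, 133 and 141 CPM with vehicle and 144, 149 and 145 CPM with TNF-α in promyelocytes (log2 fold change 0.11, adjusted p = 0.215). ECT2, the exchange factor that activates RhoA at the cleavage site, was at 59.9, 58.7 and 52.9 CPM with vehicle and 57.3, 59.6 and 61.9 CPM with TNF-α in granulocytes (log2 fold change 0.06, adjusted p = 0.392) and at 86.4, 84.5 and 93.5 CPM with vehicle and 103, 98.04 and 95.8 CPM with TNF-α in promyelocytes (log2 fold change 0.17, adjusted p = 0.0734). Both overlapped in granulocytes and were apart, upward, in promyelocytes.

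The genes of condensation and the chromosome surface held 4 of the 13 promyelocyte calls. The shares over all genes were 8.15% higher and 6.65% lower in promyelocytes. NCAPG, SMC2 and SMC4, which encode condensin subunits, were called higher in promyelocytes and lower in granulocytes, and NCAPD2, another condensin subunit, was called lower in both. SMC2 was at 85.5, 84.8 and 90.9 CPM with vehicle and 96.7, 103 and 96.3 CPM with TNF-α in promyelocytes (log2 fold change 0.18 ± 0.06 SE, adjusted p = 0.0468) and at 45.2, 47.1 and 44.9 CPM with vehicle and 37.7, 40.6 and 40.1 CPM with TNF-α in granulocytes (log2 fold change -0.21 ± 0.06 SE, adjusted p = 0.00282). SMC4 was at 416, 427 and 435 CPM with vehicle and 483, 479 and 479 CPM with TNF-α in promyelocytes (log2 fold change 0.17 ± 0.05 SE, adjusted p = 0.0368) and at 291, 311 and 297 CPM with vehicle and 276, 274 and 281 CPM with TNF-α in granulocytes (log2 fold change -0.11 ± 0.05 SE, adjusted p = 0.0486). NCAPG was at 135, 138 and 142 CPM with vehicle and 166, 167 and 149 CPM with TNF-α in promyelocytes (log2 fold change 0.21 ± 0.06 SE, adjusted p = 0.0211) and at 85.2, 88.2 and 81.01 CPM with vehicle and 76.5, 75.5 and 78.7 CPM with TNF-α in granulocytes (log2 fold change -0.14 ± 0.05 SE, adjusted p = 0.0226). All 3 kept their groups apart in each cell type. The promyelocyte call of SMC4 was lost whichever library was left out (adjusted p of 0.0634 to 0.140). Those of SMC2 and NCAPG were lost without vehicle replicate 1 or 2 or TNF-α replicate 1 or 2. The granulocyte call of SMC4 was lost in 5 of 6 fits that left out 1 library, standing without vehicle replicate 1 alone, with a highest adjusted p of 0.227 without vehicle replicate 2. That of NCAPG was lost without vehicle replicate 2 or TNF-α replicate 2 (adjusted p = 0.132 and 0.114). NCAPD2 was at 315, 299 and 296 CPM with vehicle and 266, 236 and 272 CPM with TNF-α in promyelocytes (log2 fold change -0.23 ± 0.06 SE, adjusted p = 0.0139) and at 146, 152 and 156 CPM with vehicle and 109, 106 and 116 CPM with TNF-α in granulocytes (log2 fold change -0.46 ± 0.05 SE, adjusted p = 8.32e-10), without overlap. TOP2A, the topoisomerase that untangles sister chromatids, was at 518, 546 and 520.5 CPM with vehicle and 415, 429 and 442 CPM with TNF-α in granulocytes (log2 fold change -0.30 ± 0.05 SE, adjusted p = 2.74e-06) and at 739, 702 and 737 CPM with vehicle and 781, 797 and 731 CPM with TNF-α in promyelocytes (log2 fold change 0.08, adjusted p = 0.381). NCAPH was called lower in granulocytes at -0.15, a call lost without vehicle replicate 1, 2 or 3 or TNF-α replicate 3 (adjusted p of 0.0615 to 0.362). MKI67, the source of the Ki-67 antigen used to count cycling cells, had log2 fold changes of 0.05 ± 0.06 SE in promyelocytes and 0.0024 ± 0.06 SE in granulocytes (adjusted p = 0.684 and 0.977). At mean CPM of 785 with vehicle and 787 with TNF-α in granulocytes, it was among the best covered members.

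The genes of anaphase onset went separate ways. CDC20, the activator of the anaphase-promoting complex, was called lower in both cell types. It was at 82.4, 78.2 and 86.2 CPM with vehicle and 66.7, 56.7 and 59.1 CPM with TNF-α in granulocytes (log2 fold change -0.44 ± 0.06 SE, adjusted p = 6.33e-08) and at 206, 187 and 173 CPM with vehicle and 159.6, 157 and 174 CPM with TNF-α in promyelocytes (log2 fold change -0.21 ± 0.07 SE, adjusted p = 0.0393). The granulocyte groups were apart and the promyelocyte groups overlapped, where vehicle replicate 3 lay just under TNF-α replicate 3. PTTG1 and ESPL1 encode securin and separase, the inhibitor and the protease that cuts cohesin, and both were called higher in both cell types. PTTG1 was at 31.95, 31.1 and 31.8 CPM with vehicle and 40.1, 38.3 and 35.1 CPM with TNF-α in granulocytes (log2 fold change 0.26 ± 0.06 SE, adjusted p = 0.000795) and at 84.4, 74.04 and 81.1 CPM with vehicle and 93.1, 95.3 and 91.5 CPM with TNF-α in promyelocytes (log2 fold change 0.22 ± 0.06 SE, adjusted p = 0.0176). ESPL1 was at 59.7, 63.01 and 66.1 CPM with vehicle and 68.96, 72.3 and 75.5 CPM with TNF-α in granulocytes (log2 fold change 0.20 ± 0.06 SE, adjusted p = 0.00286) and at 105, 110.4 and 111 CPM with vehicle and 126, 121 and 125 CPM with TNF-α in promyelocytes (log2 fold change 0.19 ± 0.06 SE, adjusted p = 0.0273). Neither gene overlapped between groups in either cell type, and their granulocyte calls stood whichever library was left out. UBE2C, the ubiquitin-conjugating enzyme of the complex, was not called (0.08 and 0.01 in promyelocytes and granulocytes).

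The GC content of the members was set beside their responses. Over all genes the response followed GC content in opposite directions in the 2 cell types. GC content was taken over the exons of each gene. The members had a median of 42.1% (range 34.1 to 59.4%), beside 47.9% over the 18124 genes tested in the fit of all libraries, and 39 of the 54 lay under that median. Among genes above 1 log2 CPM, the median log2 fold change in promyelocytes ran from 0.10 in the lowest GC decile to -0.11 in the highest. In granulocytes it ran from -0.07 to 0.11, and for the difference of the responses from -0.15 to 0.25. The lowest decile held 13 members in the promyelocyte fit and 14 in the granulocyte fit, and the highest held 0. The 7 members that rose in promyelocytes and fell in granulocytes had a GC content of 34.1 to 38.9%, all in the 2 lowest deciles, and the 3 that fell in promyelocytes had 51.9 to 59.4%. Across the 54 members, which share the same 12 libraries, GC content and the promyelocyte log2 fold change had a Pearson r of -0.70, against 0.17 for the granulocyte response and 0.64 for the difference.

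**Figure D4:**
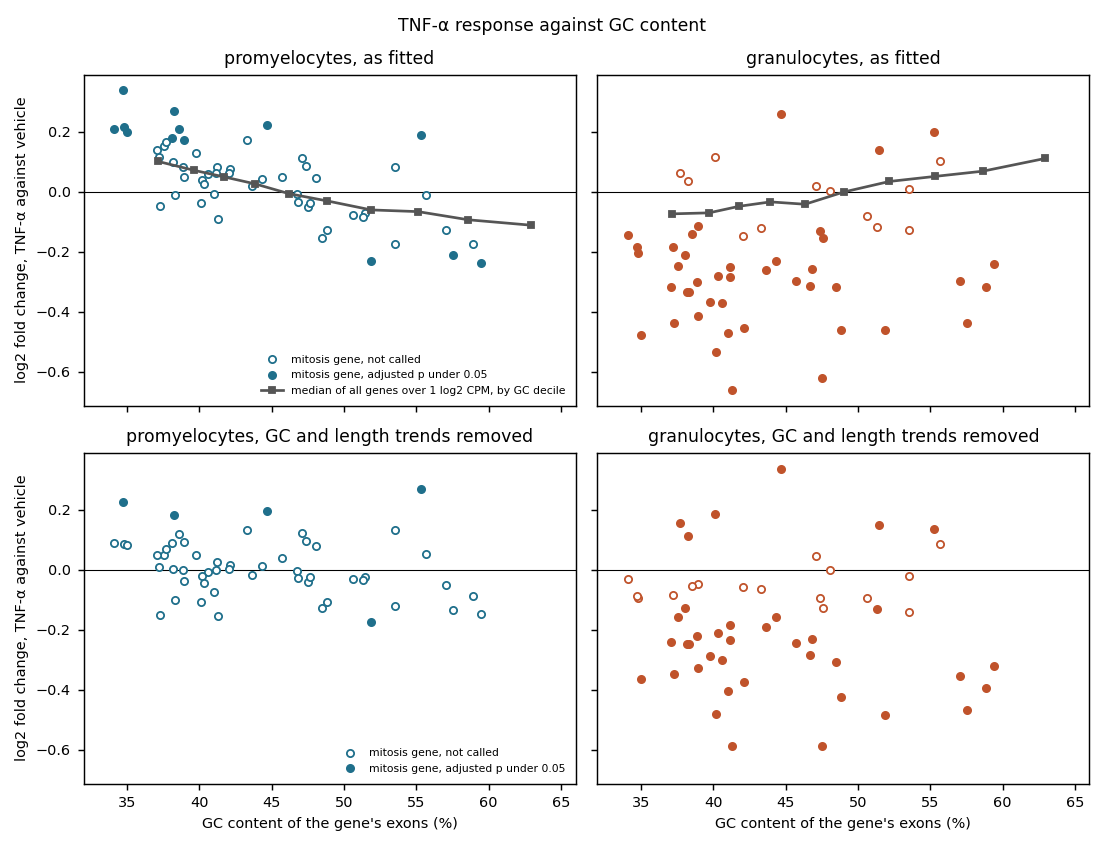
Log2 fold change of TNF-α against vehicle plotted against the GC content of the exons for the 54 mitosis genes, in promyelocytes (left) and granulocytes (right), as fitted (top) and with the trends with GC content and length removed (bottom). Filled points in either colour are adjusted p under 0.05 and the grey line joins the medians of all genes above 1 log2 CPM by GC decile. In promyelocytes the members follow the falling grey line, whereas in granulocytes most of them lie below the grey line.

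When trends with GC content and length were taken out of every library, the granulocyte falls mostly stood and the promyelocyte rises mostly did not. In granulocytes 32 members were then called lower and 6 higher (CDCA8, KIF14, KIF23, ECT2, PTTG1 and ESPL1), with a median of -0.19. The background in that fit was 25.5% lower and 25% higher. In promyelocytes 4 were called higher (CENPE, KIF14, PTTG1 and ESPL1) and 1 lower (NCAPD2), where the background was 9.29% and 6.96%. For the difference, 28 were called lower and 1 higher (KIF23), beside 12.4% and 12.3% of all genes. NEK2 kept a granulocyte log2 fold change of -0.59 (adjusted p = 1.42e-08) and CENPF one of -0.48 (adjusted p = 1.55e-12). Of the 7 members with opposite calls, 0 kept both. CENPE kept its promyelocyte rise (0.23, adjusted p = 0.00169) with a granulocyte value of -0.09 (adjusted p = 0.0932). DEPDC1 and SMC2 kept their granulocyte falls (-0.36 and -0.13, adjusted p = 3.55e-06 and 0.0388) but not their promyelocyte rises. CDK1, KIF20B, SMC4 and NCAPG kept neither. For CDK1 the values became 0.09 in promyelocytes (adjusted p = 0.289), -0.09 in granulocytes (adjusted p = 0.0858) and -0.17 for the difference (adjusted p = 0.0887). Conversely, the differences of PLK1 (-0.31, adjusted p = 0.000601), INCENP (-0.31, adjusted p = 0.000389), NCAPD2 (-0.31, adjusted p = 0.00059) and CDC20 (-0.34, adjusted p = 0.000842) passed the threshold in that fit. A response that itself depends on GC content would be removed along with a trend of the libraries, and these cannot be told apart here. For CDK1, the study also reported RT-qPCR on a repeat of the experiment, higher with TNF-α in promyelocytes and lower in granulocytes. Those measurements were not examined here.

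The tilt with GC content differed between replicates as well as between groups. It is given here as the median log2 deviation from the cell type's mean in the highest GC decile minus that in the lowest. In promyelocytes the tilt was 0.20, 0.14 and -0.0060 in vehicle replicates 1 to 3 and -0.27, -0.11 and 0.064 with TNF-α, so that the groups overlapped. In granulocytes it was -0.12, -0.16 and -0.0076 with vehicle and 0.20, 0.082 and 0.0053 with TNF-α, and the groups did not overlap. In both cell types the third replicates lay nearest to 0.

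**Figure D5:**
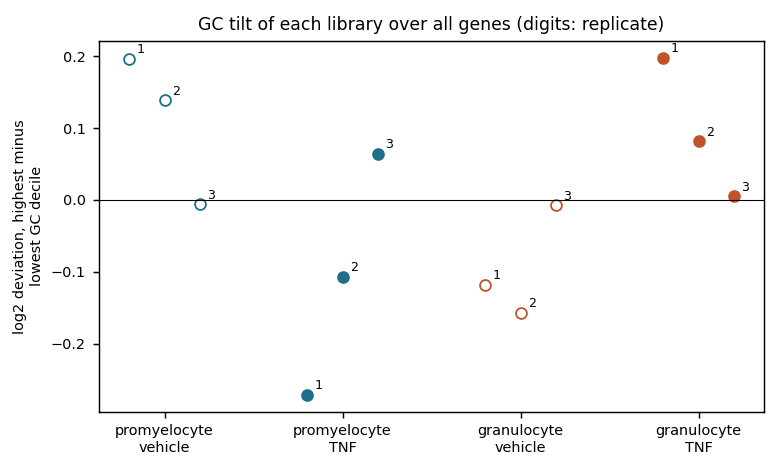
Tilt of each library with GC content over all genes above 1 log2 CPM, as the median log2 deviation from the mean of its cell type in the highest GC decile minus that in the lowest. Digits give the replicate, open points are vehicle and filled points TNF-α. Replicates 1 and 2 lie away from 0 on opposite sides for vehicle and TNF-α, in opposite order in the 2 cell types, and the third replicates lie between -0.0076 and 0.064.

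Other genes of the same processes were given by 6 lists of 121 genes. In granulocytes 38 of them (31.4%) were called lower and 27 (22.3%) higher, beside 24.8% and 24.4% of all genes. In promyelocytes 11 (9.09%) were higher and 3 (2.48%) lower, beside 8.15% and 6.65%. No test compared these lists with the mitosis genes. In granulocytes, of 15 other mitotic entry regulators 6 were called higher and 4 lower, with a median log2 fold change of 0.06. BORA, which activates PLK1 through Aurora A, fell (log2 fold change -0.44 ± 0.06 SE, adjusted p = 3.87e-08). MASTL (Greatwall), which restrains the phosphatase that opposes CDK1, rose in granulocytes (log2 fold change 0.36 ± 0.06 SE, adjusted p = 2.28e-06) and in promyelocytes (log2 fold change 0.34, adjusted p = 0.00143). Of 34 other kinetochore and centromere genes, 10 were called lower and 5 higher in granulocytes. CENPP, of the inner kinetochore, fell (log2 fold change -0.59 ± 0.06 SE, adjusted p = 7.26e-10). Of 17 genes of the anaphase-promoting complex and its inhibitors, 5 were higher and 3 lower in granulocytes, and 0 were called in promyelocytes. FZR1 (Cdh1), the activator of the complex in late mitosis and G1, rose (log2 fold change 0.48 ± 0.06 SE, adjusted p = 4.28e-08), and the subunit gene ANAPC13 fell (log2 fold change -0.38 ± 0.07 SE, adjusted p = 9.89e-06).

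Of 12 other condensin and cohesin genes, 4 were called lower and 3 higher in granulocytes. The granulocyte counts of each list here stand beside 24.8% of all genes called lower and 24.4% called higher. RAD21, the cohesin subunit that separase cuts, fell (log2 fold change -0.36 ± 0.05 SE, adjusted p = 1.02e-07), as did NCAPD3 of condensin II (log2 fold change -0.27 ± 0.05 SE, adjusted p = 3.54e-05). Among 27 other spindle and cytokinesis genes, 11 were lower and 4 higher in granulocytes. CKAP2, a spindle microtubule protein, fell (log2 fold change -0.74 ± 0.05 SE, adjusted p = 9.76e-15), whereas its relative CKAP2L rose in granulocytes (log2 fold change 0.55 ± 0.05 SE, adjusted p = 5.79e-11) and promyelocytes (log2 fold change 0.51, adjusted p = 4.74e-06). Of 16 transcriptional regulators of mitotic genes, 6 were lower and 4 higher in granulocytes. RBL2 (p130), the pocket protein of DREAM, fell (log2 fold change -0.52 ± 0.05 SE, adjusted p = 1.13e-11), and NFYA, a subunit of NF-Y, rose in granulocytes (log2 fold change 0.26 ± 0.05 SE, adjusted p = 4.14e-05) and promyelocytes (log2 fold change 0.30, adjusted p = 0.00111). In promyelocytes the 6 lists held 11 of 121 genes called higher (9.09%) and 3 lower (2.48%), beside 8.15% and 6.65% of all genes. None of the genes on these lists was called in opposite directions in the 2 cell types.

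The DNA replication genes are transcribed earlier in the cell cycle, at the start of S phase. Of 33 of them, 8 (24.2%) were called lower and 5 (15.2%) higher in granulocytes, beside the 24.8% and 24.4% of all genes, with a median log2 fold change of -0.03, and 2 (6.06%) were called in each direction in promyelocytes. Their summed level in granulocytes was 2082 to 2149.8 CPM with vehicle and 2087 to 2139.9 CPM with TNF-α, while the summed level of the mitosis genes was 5540.0 to 5770.0 CPM with vehicle and 4847 to 4989 CPM with TNF-α. PRIM1, the DNA primase subunit, fell (log2 fold change -0.44 ± 0.06 SE, adjusted p = 3.57e-07) and POLE, the leading-strand polymerase, rose (log2 fold change 0.32 ± 0.05 SE, adjusted p = 2.20e-06).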

How the data were processed

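Ribosomal RNA-depleted total RNA libraries (150-base paired reads, unstated strand setting) were counted per gene by the authors. Per the labels, the submitters' processing notes name FastQC 0.11.4, STAR 2.5.3a, featureCounts 1.5.2, DESeq2 1.16.1 and the build hg38. The deposited table holds raw read-pair counts of 58288 Ensembl genes with exon coordinates (GENCODE), with no normalization. Multiply placed reads are counted by their primary alignment, so near-identical copies can share reads.

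Counts were fitted with edgeR 4.0.16 (limma 3.58.1, R 4.3.3): TMM scaling, filterByExpr with a minimum count of 10 and minimum total of 15, quasi-likelihood tests and Benjamini-Hochberg adjustment over all genes tested, with a threshold of 0.05. Every adjusted p is from this test unless another is named. TNF-α was compared with vehicle within each cell type (3 against 3), and the difference of the responses is the interaction term in a fit of all 12 libraries, whose fold changes can differ slightly from the separate fits. An exact permutation test of 3 against 3 cannot go below p = 0.1 and was not used. Depth was 22829189 to 31895061 read pairs. GC content is that of the exon union on hg38, whose lengths equalled the deposited lengths for all 58288 genes. Trends with GC content and length were fitted per library by robust splines with 5 degrees of freedom over genes of at least 1 log2 CPM and entered as offsets. Library deviations used a pseudocount of 0.5 CPM.

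Members, role groups and pathway lists were chosen with earlier results of these data known. Values in every library are given for CDK1, the 3 members of each role group with the smallest p for the difference, members called in both cell types and members called against their role group. From each pathway list the 2 genes with the smallest p in granulocytes are named, except 1 that is not reported here. Members named besides were chosen after their values were seen. Alternatives were DESeq2 size factors, DESeq2 1.42.0, no expression filter, a replicate block, a threshold of 0.01, GC and length trends removed, all 12 libraries in 1 fit, and leaving out each library. The steps were tested on simulated data.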

Additional observations from a re-analysis of the deposited data

Results flagged for a closer look

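The interaction test in the fit of all 12 libraries (edgeR) called the TNF-α response different between the cell types in 28 members. All values are the granulocyte minus the promyelocyte response on the log2 scale. Among the genes of mitotic entry and the checkpoint these were NEK2 (-0.54), CCNA2 (-0.49), CDK1 (-0.38), CCNB2 (-0.31), TTK (-0.43), MAD2L1 (-0.43), BUB1 (-0.39), BUB3 (-0.33) and BUB1B (-0.26). At the kinetochore they were CENPF (-0.54), CENPE (-0.49), NDC80 (-0.46) and NUF2 (-0.26), and among the kinesins KIF18A (-0.35), KIF20B (-0.31), KIF11 (-0.29) and KIF4A (-0.27). Spindle proteins and anillin gave DEPDC1 (-0.64), ASPM (-0.42), DLGAP5 (-0.40), HMMR (-0.36), NUSAP1 (-0.24) and ANLN (-0.27). Condensation genes gave SMC2 (-0.35), TOP2A (-0.35), NCAPG (-0.32) and SMC4 (-0.25). CDCA8 (0.25) lay on the other side. With the trends with GC content and length removed, the calls of CDK1, NUF2, CDCA8, KIF11, KIF18A, KIF20B and SMC4 were lost and those of 8 other members were gained. With 3 libraries in each group, no separate check for single outlying libraries was run, and each library was left out in turn.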

How the results depend on the processing

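No member called before any of these settings was changed had the opposite direction under an alternative. KIF14, called higher in granulocytes with both trends removed, had log2 fold changes of -0.03 to 0.09 there when 1 library was left out and the trends were kept. In promyelocytes, the 10 members called higher became 2 with a replicate block, 4 with the GC trend removed, 4 with the GC and length trends removed, 4 with the block and both trends removed, and 2 at a threshold of 0.01. The 3 called lower became 1 in each of these fits and 0 at the threshold of 0.01, where edgeR gave the adjusted p. In granulocytes, the 3 called higher became 5 with the GC trend removed, 6 with both trends removed and 5 with the block added to these. For the difference, the 1 called higher became 0 with DESeq2 size factors, without the expression filter, with DESeq2, with the replicate block and at the threshold of 0.01. At that stricter threshold the granulocyte falls were 33 and the lower differences 23.

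Leaving out 1 library at a time gave 2 to 10 higher and 0 to 5 lower in promyelocytes, 2 to 3 higher and 34 to 37 lower in granulocytes, and 0 to 1 higher and 24 to 31 lower for the difference. A cause of these shifts was not tested. With the other alternatives, the members called lower numbered 30 to 37 in granulocytes and 22 to 36 for the difference. With the replicate block they were 34 and 22. The granulocyte calls of AURKA, NUF2, CDCA8, KIF20B, SMC4, NCAPG and NCAPH were each lost in at least 1 of the fits with DESeq2, its size factors, no expression filter, all 12 libraries together or the replicate block, at adjusted p of 0.0518 to 0.130. Libraries of the same replicate number had correlations of deviations of -0.20, -0.091 and -0.094 in promyelocytes and -0.084, -0.0085 and -0.099 in granulocytes. Libraries of different numbers had -0.11 to 0.19 in promyelocytes and -0.028 to 0.11 in granulocytes. Whether equal numbers stand for a shared step of preparation was not tested. Replicates varied by a biological coefficient of 0.067 among promyelocytes and 0.049 among granulocytes, at member counts of no less than 72.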
